A study of Mus musculus with 6 samples.

Results

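The genes described here encode the folding, quality control and stress-sensing machinery of the endoplasmic reticulum (ER), 45 genes taken by symbol from a table of 35688 gene rows. They were chosen by function, in 5 role groups: 14 chaperones and their partners, 13 disulfide isomerases and oxidases, 5 prolyl isomerases, 8 genes of ER-associated degradation and 5 sensors with their transcription factors. Earlier results of these data were known when the genes were chosen. Poly(A)-selected RNA came from the mouse line m1102, grown from surface epithelium of the ovary, its outer cell layer. The medium of every culture held 4% FBS, 0.01 mg/mL ITSS and 2 ug/mL EGF. One group of 3 libraries was untreated, and the other group of 3 had received TGFB1 at 10 ng/mL for 4 days. The labels give no day for the untreated group, so whether its time in culture was the same is unknown. All libraries come from 1 line, and the labels do not say that replicates were separately treated cultures, so the p-values here reflect only the spread between these libraries, and that spread may be technical. Abundances are TPM-scale values, which are corrected for transcript length, so levels of different genes can be compared. The depth of the libraries is unknown.

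Proteins that are secreted or sit in membranes enter the ER unfolded. There the HSP70 protein BiP, the HSP90 protein GRP94 and the lectins calnexin and calreticulin hold them while disulfide bonds form and prolines isomerize, and chains that fail are sent to the cytosol for degradation. When unfolded chains build up, the membrane sensors IRE1, PERK and ATF6 start the unfolded protein response, in which ATF6 and the spliced form of XBP1 switch on chaperone genes. TGFB1 is a cytokine known for raising the output of secreted matrix proteins, which are clients of this machinery.

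Some of these genes are known to share a promoter sequence. The ER stress response element (ERSE), bound by ATF6 together with NF-Y, reads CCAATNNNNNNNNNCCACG, where N is any base. A second form, ERSE-II, reads ATTGGNCCACG. Both were searched on both strands in RefSeq promoter windows of 300 bases (250 before and 50 after a start site, build GRCm38.p6), and 37 of the 45 genes had a window (not Hyou1, Hspa13, Sil1, Manf, Erp29, Fkbp10, Derl1 or Atf6). The ERSE was found in 10 of those 37 genes (27.0%) and in 37 of the 27025 genes with any window (0.137%). ERSE-II was found in 2 of the 37 (5.41%) and in 12 of all genes (0.044%). TGACGTG, the core of a further element that XBP1 binds, was found in 3 of the 37 (8.11%: Hspa5, Txndc5 and Txndc11) and in 601 of all genes (2.22%). Matches of different motifs could overlap, and a match describes letters and is not evidence of binding.

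The following stretches carry these elements in the genes the results turn on, with the element in capitals and up to 20 bases on either side, 5′ to 3′ along the gene's strand. Where the element lies on the opposite strand its capitals read as the reverse complement. Hspa5 is shown for the best known ERSE gene, at chr2:34772005-34772063 on the plus strand. Its element is at -65 to -47 from the RefSeq start. The gene span given below, from another annotation (GENCODE M21), begins earlier and contains this stretch. Hsp90b1 has an element on each strand, at chr10:86705618-86705676 and chr10:86705513-86705571 (minus strand gene). Creld2, at chr15:88819500-88819558 (plus), had the largest rise among ERSE genes. Calr, at chr8:84847055-84847113 (minus), encodes a lectin chaperone. Dnajb11, at chr16:22857832-22857882 (plus), and Herpud1, at chr8:94386357-94386407 (plus), are the ERSE-II genes, of which the first rose and the second was not called.
Hspa5: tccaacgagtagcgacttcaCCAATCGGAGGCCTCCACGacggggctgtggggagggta
Hsp90b1, first element: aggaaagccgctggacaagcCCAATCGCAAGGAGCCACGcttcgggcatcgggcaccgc
Hsp90b1, second element: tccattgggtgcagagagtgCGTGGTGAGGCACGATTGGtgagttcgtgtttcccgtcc
Creld2: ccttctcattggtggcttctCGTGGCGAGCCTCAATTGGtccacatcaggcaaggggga
Calr: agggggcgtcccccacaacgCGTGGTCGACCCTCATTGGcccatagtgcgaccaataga
Dnajb11: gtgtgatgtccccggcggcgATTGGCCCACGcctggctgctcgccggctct
Herpud1: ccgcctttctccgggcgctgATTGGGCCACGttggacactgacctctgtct

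After TGFB1, most chaperone and folding enzyme genes were higher, by a modest amount each. The degradation genes either rose or were not called, and the sensor genes were mixed. Of the 45 genes 43 passed the abundance filter (at least 1 TPM on average in the 6 libraries), and 31 of these (72.1%) rose and 2 (4.65%) fell, with 10 not called. A gene was called at a limma adjusted p under 0.05. Over all 12257 genes tested, 15.8% were called higher and 14.6% lower. Higher genes were thus 52.0% of all calls, and 62.8% after rescaling without mitochondrial transcripts and the 20 top genes, where 31 of the 43 rose too. The mean level of the 31 genes that rose was 1.25 to 2.46 times that of untreated cells, and the median log2 fold change of the 43 was 0.46, against 0.015 for all tested genes. Because the genes were chosen with earlier results known, these contrasts with all tested genes are descriptions and not tests. Every treated library lay above every untreated one for 31 of the 43 (72.1%) and for 26.3% of all tested genes. These were the same 31 that were called higher, so this separation, read from the same values, adds no separate support. Every treated library lay below every untreated one for 3 of the 43 and for 2891 of the 12257 tested genes. Each fold change was taken on a log2(TPM + 1) scale, so changes of low genes are understated. Summed over the 45 genes, abundance was 7720, 7976 and 8053 TPM in untreated libraries 1 to 3 and 11760, 10690 and 10550 TPM in treated ones, so the groups did not overlap and the mean sum was 1.39 times as high.

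Rises were most frequent in the 3 folding groups. By role, 11 of 13 tested chaperones rose and 1 fell, 11 of 13 disulfide isomerases and oxidases rose and 0 fell, and 4 of 5 prolyl isomerases rose and 0 fell. Of 7 tested degradation genes 3 rose and 0 fell, and of the 5 sensors 2 rose and 1 fell. For comparison, 15.8% of all tested genes were called higher and 14.6% lower. Before adjustment, limma placed 1 disulfide gene, 0 prolyl isomerases and 0 degradation genes lower at a p under 0.05. The median log2 fold change was 0.50 for chaperones, 0.46 for disulfide genes, 0.75 for prolyl isomerases, 0.12 for degradation genes and 0.10 for sensors. Whether the role groups differed from each other was not tested.

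**Figure D1:**
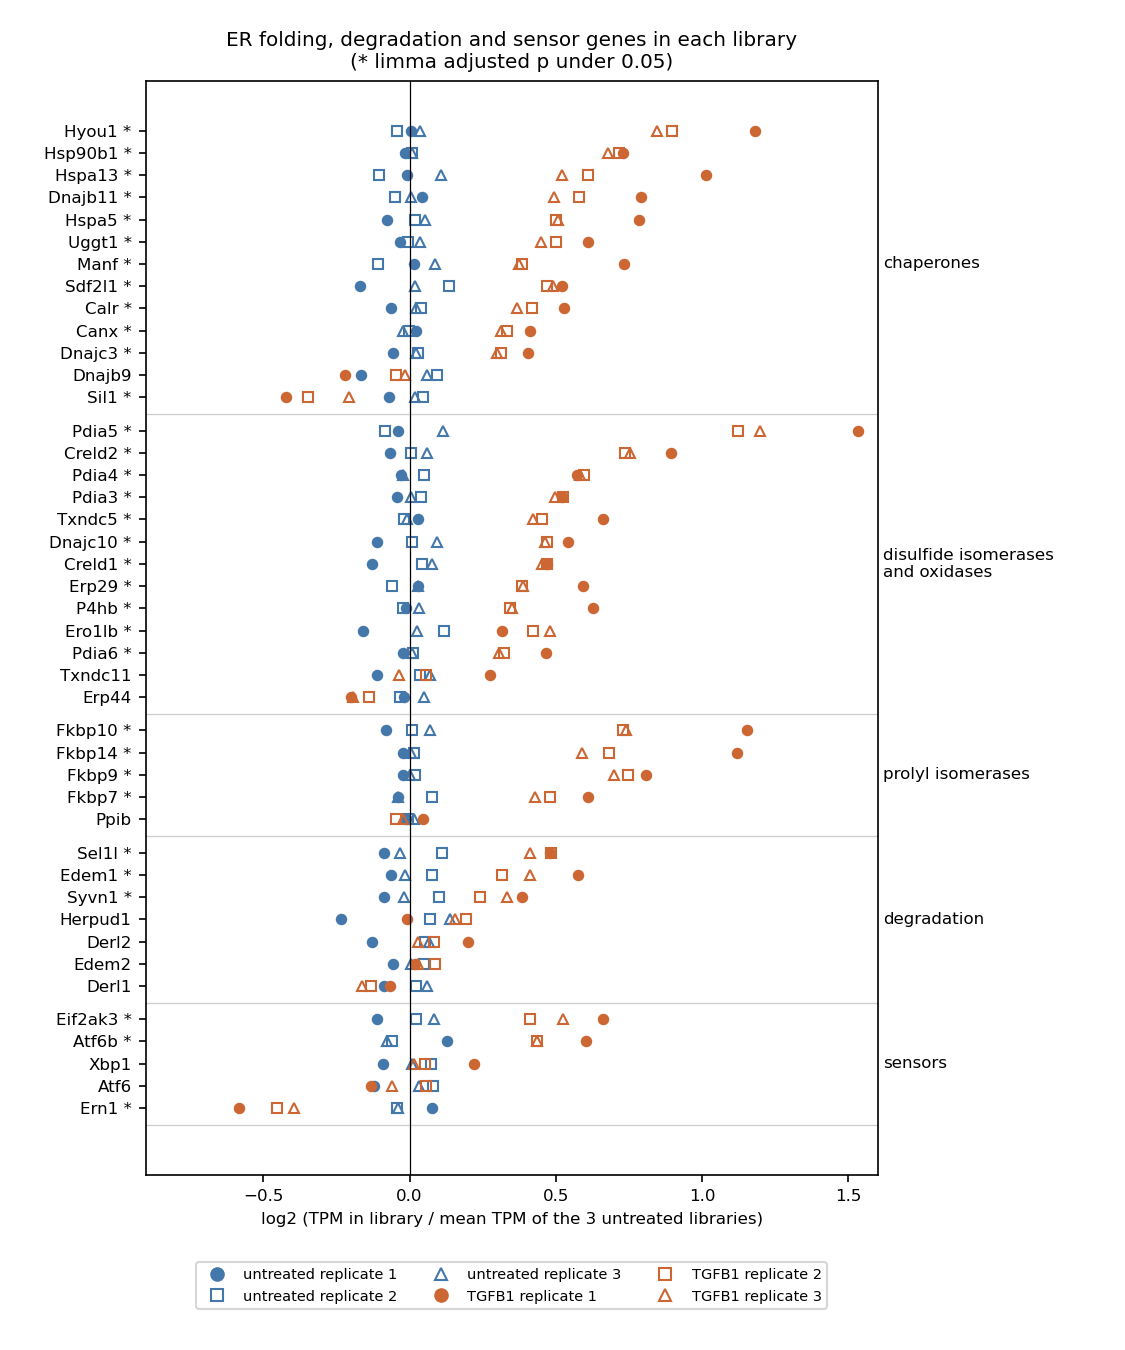
Log2 ratio of the abundance in each library to the mean of the 3 untreated libraries (x axis) for the 43 tested genes (y axis, by role and by size of change); each point is 1 library and a star marks a limma adjusted p under 0.05. Treated points lie to the right of the untreated ones for 31 genes, and Pdia5 is farthest, while those of Sil1, Ern1 and Erp44, the last not called, lie to the left.

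The treated libraries were not alike, and TGFB1 replicate 1 stood farther from untreated cells than the others did. On the first principal component of all tested genes (70.7% of the variance) its score was 46.6, while treated replicates 2 and 3 had 20.2 and 18.1 and untreated libraries -29.8 to -27.1. It was the highest of the treated libraries for 31 of the 43 genes (72.1%), among them 26 of the 31 that rose, and for 41.2% of all tested genes. Without it 31 genes rose and 2 fell. As to cell identity, 10 of 14 listed markers of surface epithelium passed the filter, among them Wt1, Msln and Upk1b, while Krt8, Cdh1 and Lhx9 stayed under 1 TPM in every library. Krt19 also missed the filter, at 2.01, 1.35 and 1.57 TPM untreated and 0, 0.361 and 0.376 TPM treated. The summed abundance of the 14 markers was 2270 to 2410 TPM untreated and 1190 to 1560 TPM treated. By limma 5 of the 10 were lower and 0 higher, against 14.6% and 15.8% of all tested genes. In bulk RNA fewer cells of a type and less RNA per cell cannot be told apart. Of the markers of other cell types, 3 of 5 for granulosa, 4 of 5 for theca and luteal, 4 of 5 for endothelial, 4 of 5 for leukocyte and 4 of 5 for germ cells were under 1 TPM in every library, Ptprc, Fshr, Cyp17a1, Kdr and Dazl included. The summed levels of these lists were 33.8 to 37.9 untreated and 30.9 to 34.1 TPM treated for granulosa, and 279 to 326 and 79.8 to 182 TPM for theca and luteal cells, nearly all of it Star. Leukocyte markers, nearly all Cd68, summed to 18.9 to 26.4 and 7.71 to 9.99 TPM, germ cell markers to 10.4 to 24.2 and 7.03 to 9.31 TPM and endothelial ones to 1.07 to 1.27 and 1.73 to 2.30 TPM. Their part in the results was not tested.

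BiP, encoded by Hspa5 (chromosome 2, 34771970 to 34777547, plus strand, GRCm38 with GENCODE M21), is the central ER chaperone and the protein that keeps the sensors inactive. Untreated libraries 1 to 3 held 827, 884 and 904 TPM of it and treated libraries 1500, 1234 and 1240 TPM. Every treated library was thus above every untreated one, with TGFB1 replicate 1 highest, and the means were 872 ± 39.9 and 1325 ± 152 TPM (± SD throughout, with n = 3 in either group). The log2 fold change was 0.60 (SE 0.088, limma adjusted p = 0.00403), and 0.51 without TGFB1 replicate 1. Hsp90b1, which encodes GRP94, the HSP90 of the ER, was at 842, 856 and 856 TPM untreated and at 1412, 1400 and 1361 TPM treated. Its groups were far apart and tight, with a log2 fold change of 0.71 (SE 0.045, limma adjusted p = 0.000291). Of the 31-mers in Hsp90b1 transcripts 12.3% also occur in another gene. Along with Calr these were the most abundant genes of the chaperone role group. Ranked by mean level among the 12257 tested genes, Hspa5 went from 190 to 93, Hsp90b1 from 193 to 82 and Calr from 182 to 109.

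Hyou1 encodes GRP170, a large HSP70 relative that acts as a nucleotide exchange factor for BiP, and it had the largest rise among the chaperones (chromosome 9, 44379490 to 44392369, plus strand). It was at 124, 119.7 and 126 TPM untreated and at 279.8, 229.6 and 221 TPM treated, so the treated mean was 1.98 times the untreated one (log2 fold change 0.97, SE 0.094, limma adjusted p = 0.00101). Sil1, which encodes the other nucleotide exchange factor of BiP, went the opposite way. Its values were 54.4, 58.9 and 57.8 TPM untreated and 42.5, 44.8 and 49.4 TPM treated, so each treated library was below each untreated one. The fold change was -0.32 (SE 0.075, limma adjusted p = 0.0203), a call lost without untreated replicate 2 or 3 or TGFB1 replicate 2 (adjusted p = 0.0667, 0.0766 and 0.065). The ratio of Hyou1 to Sil1 abundance, a pair chosen after its values were seen, was 2.28, 2.03 and 2.19 in the untreated libraries and 6.58, 5.13 and 4.48 in the treated ones.

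J-domain proteins bring substrates to BiP, and they differed. Dnajb11, which encodes ERdj3, rose from 73.8 ± 2.40 to 114 ± 12.3 TPM, with single libraries at 76.0, 71.2 and 74.1 and then 128, 110.2 and 104 TPM (log2 fold change 0.61, SE 0.085, limma adjusted p = 0.00329). Dnajc3, which encodes P58IPK, rose by less, from 42.9 ± 1.40 to 54.3 ± 2.23 TPM (0.33 on the log2 scale, adjusted p = 0.00866). Dnajb9, which encodes ERdj4, a strongly stress-inducible member of the family, was not called, at 52.2, 62.5 and 60.9 TPM untreated and 50.3, 56.8 and 57.9 TPM treated (log2 fold change -0.09, SE 0.093, limma adjusted p = 0.51). Its groups overlapped. Hspa13, an HSP70-like gene, rose from 12.3, 11.5 and 13.3 TPM to 24.96, 18.9 and 17.8 TPM (log2 fold change 0.68, SE 0.133, limma adjusted p = 0.0112).

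The lectin chaperones, which bind chains carrying monoglucosylated sugars, rose with the enzyme that marks these chains. Canx, which encodes calnexin, was at 472, 464 and 457 TPM untreated and at 618, 585 and 577 TPM treated (log2 fold change 0.35, SE 0.050, limma adjusted p = 0.00369). Calr, which encodes calreticulin, rose from 919 ± 35.3 to 1246 ± 71.2 TPM (log2 fold change 0.44). Uggt1, the glucosyltransferase that returns misfolded glycoproteins to the lectins, rose from 61.9 ± 1.51 to 88.8 ± 5.05 TPM (0.51, adjusted p = 0.00223). Each of the 3 had separate groups.

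Of the remaining chaperone-group genes, Sdf2l1, a BiP-complex partner, rose from 44.6 ± 4.73 to 62.8 ± 1.09 TPM, or by 0.49 on the log2 scale (adjusted p = 0.007). Manf, which encodes a small secreted ER stress protein, rose from 445 ± 30.1 to 632 ± 92.7 TPM (0.50, adjusted p = 0.0159). The Manf call was lost without untreated replicate 1 or 2 (adjusted p = 0.0519 and 0.0567). Its relative Cdnf did not reach the filter, at 0.308 ± 0.0696 and 0.701 ± 0.453 TPM, with 1.213 TPM in TGFB1 replicate 1.

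Protein disulfide isomerases make and reshuffle disulfide bonds, and most of them rose. Pdia5 (chromosome 16, 35397312 to 35490873, minus strand) had the largest change of all 43 genes, from 5.60, 5.43 and 6.22 TPM to 16.7, 12.5 and 13.2 TPM, a mean 2.46 times as high. Its log2 fold change of 1.16 (SE 0.121, limma adjusted p = 0.00127) made it the only gene that rose by at least 1 on this scale, and its levels were low next to those of other isomerases. Pdia3, which encodes ERp57, the isomerase that works with calnexin and calreticulin, was at 775, 819.9 and 801 TPM untreated and at 1146, 1148 and 1129 TPM treated (0.51, SE 0.047, limma adjusted p = 0.000884). Pdia4, which encodes ERp72, was at 217, 229 and 218 and then at 329, 335 and 331 TPM (0.58, SE 0.049, limma adjusted p = 0.000676). The treated libraries lay close together for both, with SDs of 10.3 and 2.87 TPM, and far above the untreated ones.

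Creld2, an ER stress-inducible gene with isomerase activity, rose from 62.3, 65.5 and 68.2 TPM to 122, 109 and 110.3 TPM (log2 fold change 0.79, SE 0.068, limma adjusted p = 0.00071). Its relative Creld1 rose from 62.8 ± 4.68 to 86.8 ± 0.649 TPM (0.46, adjusted p = 0.00423). P4hb encodes PDI itself, which also serves as the beta subunit of collagen prolyl 4-hydroxylase, and rose from 472 ± 9.65 to 643 ± 74.0 TPM (0.44, adjusted p = 0.0101). Other rises were those of Txndc5 (a log2 fold change of 0.51), Pdia6 (273 ± 3.47 to 352 ± 21.6 TPM), Dnajc10, a disulfide reductase gene (95.9 ± 6.84 to 135 ± 4.18 TPM), and Erp29 (116 ± 4.08 to 159 ± 13.4 TPM). Of the 31-mers in Erp29 transcripts 27.0% also occur in another gene, so its value is uncertain. Ero1lb, one of the oxidases that recharge the isomerases, rose from 8.06 ± 0.774 to 10.7 ± 0.612 TPM (0.37, adjusted p = 0.0273). That call was lost with no filter and without untreated replicate 1 or 3 or TGFB1 replicate 2 or 3 (adjusted p from 0.0676 to 0.0846).

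In this group 2 genes were not called. Erp44, which retrieves escaped oxidases and immature proteins from the early secretory pathway, was at 74.6 ± 2.33 and 65.9 ± 1.57 TPM. Each of its treated libraries was below each untreated one (log2 fold change -0.18, adjusted p = 0.0525), and it was called lower with no filter, median-of-ratios scaling or quantile normalization (adjusted p = 0.0471, 0.0348 and 0.0414). Txndc11 was at 31.9 ± 2.07 and 34.3 ± 3.88 TPM (0.10, adjusted p = 0.475), with overlapping groups.

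Prolyl isomerases speed a slow step in folding, and 4 of the 5 genes of this group, those of the FK506-binding family, rose. The family did not move as a whole: of its members in the list of further folding genes, Fkbp2 fell (log2 fold change -0.43, adjusted p = 0.00565) and Fkbp11, chosen after its values were seen, was not called (-0.37, adjusted p = 0.136) but was called lower without TGFB1 replicate 1 (adjusted p = 0.00134). Fkbp10, which encodes FKBP65, a collagen chaperone whose loss causes brittle bones, went from 158, 168 and 176 TPM to 373, 278 and 279.8 TPM (log2 fold change 0.87, SE 0.120, limma adjusted p = 0.00325). Fkbp9 went from 92.3, 95.0 and 93.7 TPM to 164, 157 and 152 TPM (0.75, SE 0.054, limma adjusted p = 0.000396). Fkbp14, mutated in a form of Ehlers-Danlos syndrome, went from 14.8, 15.2 and 15.1 TPM to 32.7, 24.1 and 22.7 TPM (0.76, SE 0.134, limma adjusted p = 0.00756). Treated libraries exceeded untreated ones for each, and TGFB1 replicate 1 was highest each time.

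Fkbp7 rose from 57.9, 62.7 and 57.8 TPM to 90.8, 82.9 and 80.1 TPM (log2 fold change 0.50, SE 0.070, limma adjusted p = 0.0035). Ppib, which encodes cyclophilin B, the isomerase in the collagen prolyl 3-hydroxylase complex, was not called, at 563, 565 and 573 TPM untreated and 585, 549 and 558 TPM treated (-0.01, SE 0.049, limma adjusted p = 0.918). The sign of this small value changed with the scaling, and 37.0% of the Ppib 31-mers are shared with another gene, so it is uncertain.

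**Figure D2:**
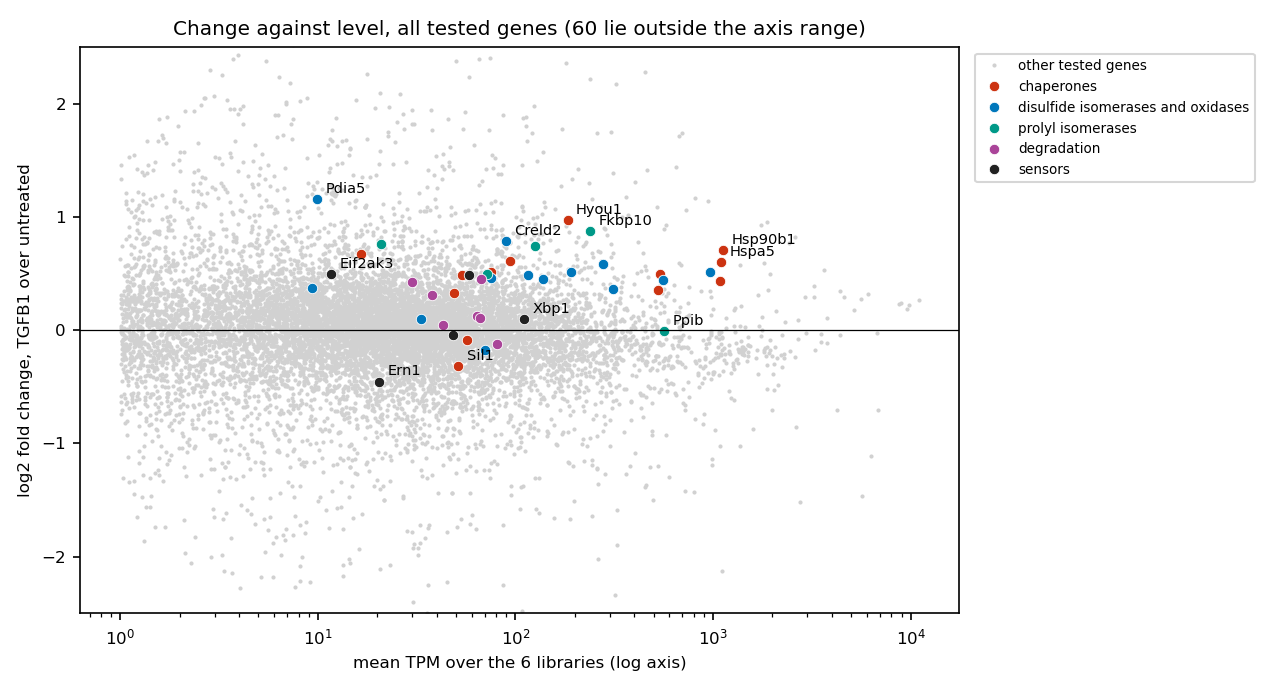
Log2 fold change (TGFB1 over untreated, y axis) against mean abundance over the 6 libraries (TPM, log x axis) for all 12257 tested genes in grey, with the 43 tested genes coloured by role; 60 genes lie outside the y range. Coloured points lie mainly above 0, up to 1.16 for Pdia5, and Sil1 and Ern1 lie below it.

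Genes of ER-associated degradation moved less. Sel1l and Syvn1 encode the adaptor and the ubiquitin ligase of the main retrotranslocation complex. Sel1l went from 53.4, 61.2 and 55.4 TPM to 79.1, 79.2 and 75.5 TPM (log2 fold change 0.46, SE 0.069, limma adjusted p = 0.00449). Syvn1 went from 31.6, 36.0 and 33.1 TPM to 43.9, 39.7 and 42.3 TPM (0.31, SE 0.074, limma adjusted p = 0.0203), a call lost without untreated replicate 1 or 3 or TGFB1 replicate 3 (adjusted p = 0.0635, 0.0758 and 0.0603). Edem1, whose product trims mannose and hands glycoproteins to degradation, went from 24.2, 26.7 and 25.03 TPM to 37.7, 31.5 and 33.7 TPM (0.42, SE 0.084, limma adjusted p = 0.0116). In all 3 the groups were apart.

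The other 4 tested degradation genes had overlapping groups and were not called. Herpud1, an ER stress-induced scaffold of the same complex, was at 52.1, 64.4 and 67.4 TPM untreated and at 61.0, 70.1 and 68.3 TPM treated (log2 fold change 0.12, adjusted p = 0.441). Replicate 1 was the lowest library in either group. The means were 42.3 ± 1.59 and 43.6 ± 1.10 TPM for Edem2, 84.1 ± 4.45 and 77.4 ± 2.71 TPM for the derlin gene Derl1, and 63.6 ± 4.69 and 68.5 ± 4.18 TPM for Derl2. Derl3 was below the filter, at 0.307 ± 0.212 and 0.585 ± 0.193 TPM.

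The sensors did not move together. Ern1, which encodes the kinase and RNase IRE1 alpha that splices Xbp1 RNA (chromosome 11, 106394650 to 106487852, minus strand), was at 25.1, 23.1 and 23.2 TPM untreated and at 15.9, 17.4 and 18.1 TPM treated. All treated values were lower, and it fell by 0.45 on the log2 scale (SE 0.076, limma adjusted p = 0.00633). Eif2ak3, which encodes PERK, the kinase that slows translation (chromosome 6, 70844515 to 70905245, plus strand), was at 8.83, 9.68 and 10.1 TPM untreated and at 15.1, 12.7 and 13.7 TPM treated (0.49, SE 0.092, limma adjusted p = 0.0093). The ratio of Eif2ak3 to Ern1 abundance, a pair picked with its values in view, was 0.352, 0.419 and 0.436 untreated and 0.950, 0.730 and 0.758 treated.

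The ATF6 paralogs differed too. Atf6, the membrane-bound transcription factor released by cleavage in the Golgi, was at 44.95, 51.6 and 50 TPM untreated and at 44.6, 50.8 and 46.9 TPM treated, with overlapping groups (log2 fold change -0.04, SE 0.080, limma adjusted p = 0.722). Atf6b, its less active relative, rose from 52.5, 46.1 and 45.6 TPM to 73.0, 65.0 and 65.0 TPM (0.49, SE 0.082, limma adjusted p = 0.00642). Xbp1, itself induced by ATF6, was at 101, 113 and 108 TPM untreated and at 125, 111 and 108 TPM treated. Its groups overlapped and it was not called (0.10, SE 0.076, limma adjusted p = 0.369). These are gene totals, so the spliced form of Xbp1 was not measured here, nor was cleavage of ATF6 or phosphorylation of PERK.

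**Figure D3:**
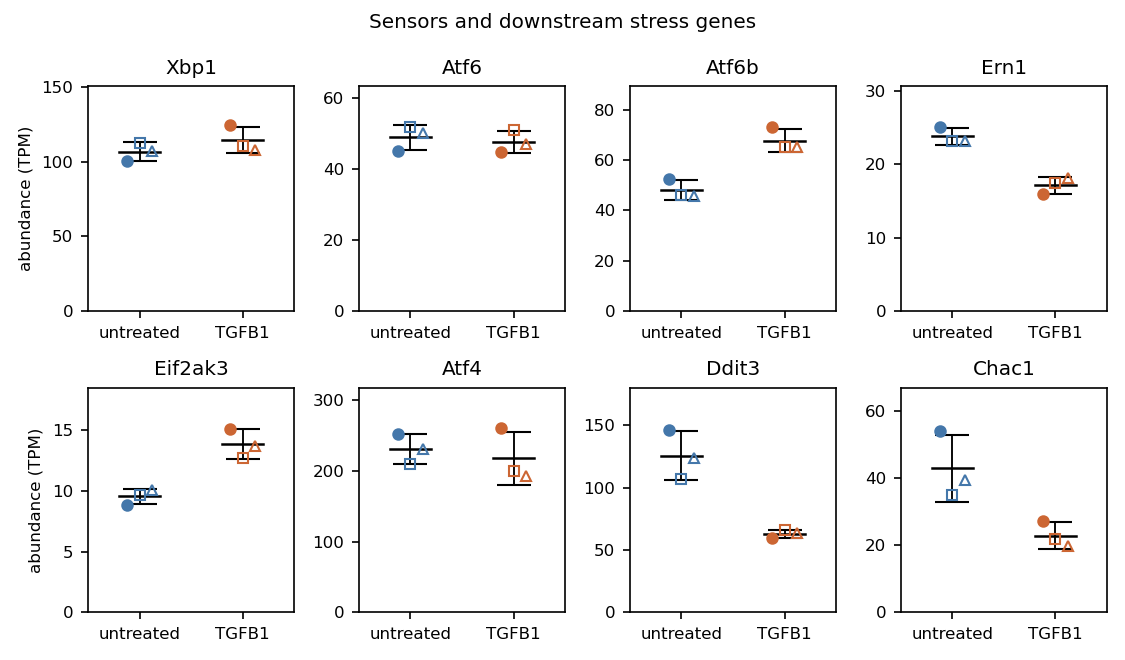
Abundance (TPM, y axis from 0) in the untreated and TGFB1 libraries (x axis) for the 5 sensor genes and for Atf4, Ddit3 and Chac1, which act after PERK; each point is a library (filled circle replicate 1, square 2, triangle 3), the long bar is the group mean and the whiskers are 1 SD. Atf6b and Eif2ak3 are higher, Ern1, Ddit3 and Chac1 are lower, and the groups of Xbp1, Atf6 and Atf4 overlap.

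Among genes that act after PERK, Ddit3 and Chac1 fell, and most of the others listed were not called. Ddit3, which encodes CHOP, the transcription factor known for promoting death under lasting ER stress, was at 146, 107 and 124 TPM untreated and at 59.3, 66.0 and 63.3 TPM treated. Its groups were well apart (log2 fold change -0.98, SE 0.115, limma adjusted p = 0.00196). Chac1, a glutathione-degrading enzyme gene induced by ATF4 and CHOP, fell from 54.2, 35.1 and 39.5 TPM to 27.3, 21.8 and 19.7 TPM (-0.87, SE 0.181, limma adjusted p = 0.0135). Atf4, which encodes the factor translated when PERK is active, was at 230.5 ± 21.6 and 217 ± 37.4 TPM and was not called (-0.09, adjusted p = 0.616). Named after their values were seen, Trib3, Ppp1r15a, Ppp1r15b, Asns, Atf3 and Sesn2, which belong to the same arm, were not called either (limma adjusted p from 0.0526 for Ppp1r15b to 0.601 for Atf3), while the stress gene Nupr1 rose. Log2 fold changes were -0.289 for Trib3, -0.153 for Ppp1r15a, -0.196 for Ppp1r15b, -0.205 for Asns and -0.233 for Sesn2. Only that of Atf3 was positive (0.226, SE 0.298), and it was -0.129 without TGFB1 replicate 1. Trib3, Ppp1r15b, Asns and Sesn2 were called lower in some alternatives, given below. The ratio of Hspa5 to Ddit3 abundance, again chosen after the values were seen, was 5.67, 8.28 and 7.28 untreated and 25.3, 18.7 and 19.6 treated.

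A list of 19 further signalling genes, including Ddit3, Chac1 and Atf4, gave 3 higher (17.6%) and 2 lower (11.8%) among 17 tested, near the shares of all tested genes (15.8% and 14.6%). Without TGFB1 replicate 1 the number lower was 4, with Trib3 and Asns added (adjusted p = 0.0183 and 0.0265). It was also 4 with quantile normalization, where Ppp1r15b and Sesn2 were the added genes. With a filter of 5 TPM or median-of-ratios scaling it was 3, with Ppp1r15b added. The higher ones were Nupr1, a stress-induced chromatin protein gene (155 ± 21.3 to 752 ± 43.3 TPM, log2 fold change 2.28), Creb3l2, an ER-membrane transcription factor gene known for supporting secretion in cartilage (39.6 ± 1.15 to 117 ± 26.3 TPM, 1.52, adjusted p = 0.000962), and Wfs1, an ER membrane protein gene (10.8 ± 0.852 to 17.7 ± 1.43 TPM, 0.66). The Creb3l2 values were 40.1, 40.3 and 38.3 TPM untreated and 148, 103 and 101 TPM treated.

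Of 29 further folding genes 27 were tested, and 7 rose (25.9%, against 15.8% of all tested genes) and 2 fell (7.41%, against 14.6%). The largest rises were those of P3h1, a collagen prolyl 3-hydroxylase gene (log2 fold change 1.05), Prdx4, the ER peroxiredoxin gene (208 ± 0.997 to 373.5 ± 21.6 TPM, 0.84, adjusted p = 0.000346), and Ppic, which encodes cyclophilin C (186 ± 11.7 to 299 ± 6.07 TPM, 0.68, adjusted p = 0.000831). The falls were those of Fkbp2 (-0.43) and the thioredoxin-like gene Tmx2 (-0.41), whose 31-mers are shared with other genes to 31.5%. Of 21 further degradation genes all were tested, and 5 rose (23.8%, against 15.8% of all tested genes) and 0 fell (1 was lower at an unadjusted limma p under 0.05). The number that rose was 2 without untreated replicate 1, without untreated replicate 3, without TGFB1 replicate 2 or without TGFB1 replicate 3, since Rnf5, Os9 and Man1b1 then lost their calls, and Edem3 and Ube2g2 kept theirs. The largest rises were those of Edem3 (24.5 ± 1.10 to 37.7 ± 1.80 TPM, 0.60), Ube2g2 (0.38) and Rnf5 (0.34), the last with 37.1% shared 31-mers.

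Among the 45 genes, 16 are in wide use as reporters of ER stress. Of these 13 (81.2%) rose and 0 fell, also at an unadjusted limma p under 0.05. Dnajb9, Herpud1 and Xbp1 were the 3 not called. Over all tested genes 15.8% were called higher and 14.6% lower. The 16 do not include the stress genes Ddit3 and Chac1, which fell, or Nupr1, which rose. The median log2 fold change of the 16 was 0.47. Of the 29 others 27 were tested, 18 rose and 2 fell, with a median of 0.45. The ratio of Hspa5 to Dnajb9 abundance, both in this list and chosen after the values were seen, was 15.9, 14.1 and 14.8 untreated and 29.8, 21.7 and 21.4 treated.

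Returning to the promoter windows, 9 of the 10 genes with an ERSE passed the filter, all but Derl3. All 9 rose, namely Hspa5, Hsp90b1, Dnajc3, Calr, Canx, Pdia6, Ero1lb, Creld2 and Syvn1, with a median log2 fold change of 0.37 and a range of 0.31 to 0.79. Of the 27 genes with a window and no ERSE 26 were tested, and 17 rose, 1 fell and 8 were not called, with a median of 0.47. The difference between these sets was not tested. Over all tested genes 15.8% were called higher and 14.6% lower. The set without an ERSE includes Dnajb11 and Herpud1, which carry ERSE-II. Lack of an ERSE here means only that the window held no exact match. Outside the 45 genes, 27 others had an ERSE, of which 8 were tested and 0 were called by limma in either direction, while 1 had an unadjusted p under 0.05. Their median log2 fold change was -0.16.

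**Figure D4:**
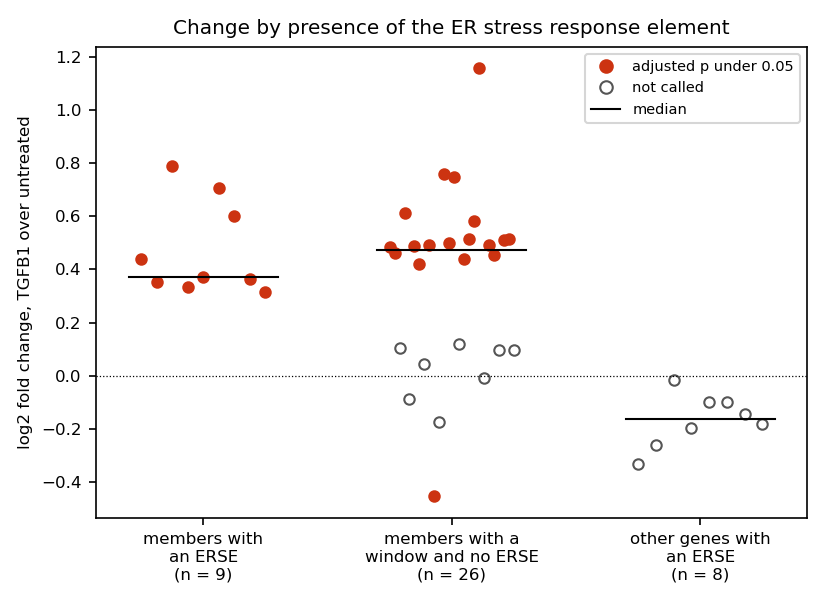
Log2 fold change (TGFB1 over untreated, y axis) of the tested ER genes with and without an ERSE in a 300-base promoter window and of other tested genes with an ERSE (x axis, genes in alphabetical order within each set); filled points have a limma adjusted p under 0.05 and bars are medians. The 9 ER genes with the element lie between 0.31 and 0.79, and the 8 other genes lie below 0 and were not called.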

How the data were processed

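Per the submitters' processing notes, kallisto 0.44.0, sleuth 0.30.0 and build GRCm38 were used, with no role given. Annotation, strand setting and gene summing were not given in the sources used here, so they are unknown. The authors deposited 1 table with a TPM-scale signal per gene and library. Its column totals (983434 to 1026702) differ, so the values are not plain TPM, and they hold no counts.

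Symbols were matched to the table, using the most abundant row of any repeated symbol. Rows averaging 1 TPM or more were fitted as log2(TPM + 1) with limma 3.58.1 (lmFit, eBayes with trend) in R 4.3.3, with two-sided p-values and Benjamini-Hochberg adjustment over all tested genes. The steps were tested on simulated data. Genes, lists and tests were chosen with earlier results of these data known. Values in each library are given for the sensors, Hspa5, Hsp90b1, Canx and up to 4 called genes per role and direction. Outside this rule they are also given for Dnajb9, Herpud1, Ppib, Ddit3, Chac1 and Creb3l2. Other genes are summarised. From each further list up to 3 called genes per direction were named, with Atf4 and Ddit3.

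Shared 31-mers and positions came from GENCODE M21, which held 35022 of the 35688 gene IDs. Overlapping genes may share reads. Promoters were searched with Python 3.11.15. Protein sequence features, planned beforehand, were not analysed here. Alternatives varied the pseudocount, filter, scaling, trend, replicate block, repeated rows and each library.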

Additional observations from a re-analysis of the deposited data

How the results depend on the processing

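The number of ER genes that rose was 31 with pseudocounts of 0.1 or 5, a filter of 5 TPM, 3 other scalings, a replicate block, no trend or repeated rows removed (an alternative chosen after seeing the data), 30 with no filter, and 28 to 31 with each library left out. After rescaling to the sum without mitochondrial transcripts and the 20 top genes, 62.8% of all called genes were higher, against 52.0% as deposited. With each library left out, 1121 to 1992 genes were higher over the whole table, against 1937, and 915 to 1951 lower, against 1788. Of the 31 genes 28 kept their call in every alternative, and the exceptions were Manf, Ero1lb and Syvn1. The number that fell was 1 to 2 with each library left out, against 2, because Sil1 was called or not (0 to 1 chaperones lower). With no filter, median-of-ratios scaling or quantile normalization 1 disulfide gene, Erp44, was called lower. Of the further lists, 2 to 5 degradation genes were higher with each library left out, against 5, and 2 to 4 signalling genes lower, against 2, with 4 lower also under quantile normalization. Ppib had a log2 fold change of 0.055 with quantile normalization, 0.042 after rescaling and -0.035 to 0.011 with each library left out, and Atf6 one of 0.007 after rescaling and -0.099 to 0 with each library left out; neither was called in any of these. Whether the replicate numbers pair the libraries is unknown, since the labels do not say. Deviations from the group means correlated at 0.198, 0.153 and -0.038 for numbers 1 to 3. TGFB1 replicates 1 and 2 correlated best with the untreated library of the same number. Untreated replicate 2 correlated best with TGFB1 replicate 3 (0.184). With 3 libraries per group these values cannot settle the question. The fit with a replicate block gave 31 genes higher and 2 lower. Unknown depth leaves the precision of low values, such as Cdnf and Derl3, unmeasured.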
